A study of Mus musculus with 12 samples.

Results

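Nr4a2, Ctgf, Cplx3, Nxph4, Moxd1 and Gnb4 are 6 genes used to mark neurons of the subplate, of cortical layer 6b and of the claustrum, chosen by their names, and all 6 were found among the 23951 rows of each deposited table. The subplate is a band of early-born neurons under the cortical plate that guides growing thalamic axons, and its surviving cells form layer 6b of the adult rodent cortex. The claustrum is a thin sheet of neurons beside the striatum that is connected with most of the cortex. Nr4a2 marks both populations, Ctgf, Cplx3, Nxph4 and Moxd1 are used for subplate and layer 6b, and Gnb4 is used for the claustrum.

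RNA was sequenced from dissected cortex of C57BL/6 mice that were knockout (KO, labelled miR-137 KO), heterozygous (Het, labelled miR-137/+) or wild type (WT, labelled wildtype) for miR-137, a microRNA abundant in brain that is made from the gene Mir137. The series asks what this microRNA does in neurodevelopment. Each genotype had 4 libraries, 12 in all. Their titles carry nested numbers, so that some libraries of a genotype share a leading number and others do not. What the leading number stands for is not given, so these libraries may not be independent of one another. The labels used here also give no age, no sex and no statement that each came from its own animal. The p-values therefore reflect how these libraries vary, and part or all of that variation may be technical. The deposited tables hold the authors' RPKM (read counts scaled to transcript length and library size), 1 pooled value per genotype and comparison. No SD can therefore be given, and library depth is unknown. Rose and fell are used where the adjusted p (q-value) in the authors' deposited table is below 0.05. A log2 fold here is log2(RPKM + 1) of one genotype minus that of the other. On this scale low genes appear to change less than they did. A change written as a multiple is the plain ratio of RPKM, without the added 1. In bulk tissue, fewer cells of a type and less RNA per cell cannot be told apart.

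The row of Mir137 itself was listed at 0 in all 3 genotypes, so it checks no genotype label. Of 8 measured genes of most cortical excitatory neurons, 1 fell in KO and 2 rose in Het against WT. Over all tested genes 7.68% fell in KO and 3.95% rose in Het. The median log2 fold of the 8 genes was 0.08 in KO and 0.20 in Het. The gene that fell was Slc17a7, a vesicular glutamate transporter gene, at 393 RPKM in KO and 575 in WT cortex, and those that rose in Het were the transcription factor genes Neurod1 and Bhlhe22 (adjusted p 0.000987, 0.00135 and 0.0107 in the authors' deposited tables). Striatal projection neuron genes summed over 9 of 9 listed members to 460 RPKM in KO and 448 in Het, against 56.4 in WT, and choroid plexus genes over 7 of 7 to 87.7 in KO and 290 in Het, against 2070 in WT, in the authors' deposited tables. Over all tested genes 6.72% rose and 7.68% fell in KO against WT, and 3.95% rose and 5.06% fell in Het. Beside these shares, all 9 striatal genes rose, and 6 of 7 choroid plexus genes fell, in both KO and Het against WT. The part of these differences in the results that follow was not tested.

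The microRNA targeted in these mice acts by pairing of its seed, bases 2 to 8 (in capitals, 5′ to 3′), with messenger RNAs. It lies at chr3:118433901-118433923 on the plus strand of GRCm38.p6, and the sequence is RefSeq's.
mmu-miR-137-3p: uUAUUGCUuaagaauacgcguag

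A match to this seed was looked for in the longest annotated 3' UTR of each of the 6 genes (GENCODE M21, GRCm38), as the 7 letters that pair with the seed, with or without an A after them, or as pairing of bases 2 to 7 followed by an A. None of the 6 genes held such a match. The 3' UTRs searched measured 1326 nt in Nr4a2, 1608 in Ctgf, 2245 in Cplx3, 633 in Nxph4, 1161 in Moxd1 and 4788 in Gnb4. Among 12453 expressed genes with an annotated 3' UTR, 16.0% held at least 1 match. Among genes with a 3' UTR within 20% of the length in Gnb4 the share was 39.4%, and for the length in Nr4a2 it was 13.2%. The absence says only that these letters are not in these stretches.

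Of the 6 genes 2, Nr4a2 and Cplx3, rose and none fell in KO against WT, where 6.72% of the 14059 genes tested rose and 7.68% fell. In Het against WT 1 of 6, Cplx3, rose and none fell, where 3.95% of 14159 tested genes rose and 5.06% fell. In KO against Het 1 of 6, Nr4a2, rose and none fell, where 0.917% of 14062 tested genes rose and 0.953% fell. The median log2 fold of the 6 genes was 0.21 in KO against WT, 0.24 in Het against WT and -0.18 in KO against Het, beside 0.01, 0.01 and 0.00 over all tested genes of at least 1 RPKM. The members did not move as one group. Against WT, KO had 4 of the 6 genes above 0 on the log2 scale and Het had 4, but Nr4a2 was above in KO and below in Het, and Moxd1 the reverse.

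Nr4a2 was the member that differed most between genotypes. It encodes Nurr1, an orphan nuclear receptor that acts as a transcription factor in subplate, claustrum and midbrain dopamine neurons and that neuronal activity can also induce. Its level was 18.0 RPKM in KO, 8.17 in Het and 10.8 in WT in the authors' deposited tables. KO was the highest of the 3 genotypes and Het the lowest.

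In KO against WT, Nr4a2 rose 1.67-fold, a log2 fold of 0.69 (adjusted p 0.000987 in the authors' deposited table). It rose 2.2-fold in KO against Het, a log2 fold of 1.05 (adjusted p 0.00517 in the authors' deposited table). Each is the lowest adjusted p given for its comparison, and other genes share it. Among these are Cyr61 and Nov in KO against WT, and Nxph3 and Nov in KO against Het. The change of Nr4a2 in KO against Het exceeded in size that of 99.5% of the 14062 genes tested. Het against WT gave a log2 fold of -0.36 with an adjusted p of 0.0526 in the authors' deposited table, just outside the threshold. The 2 differences from WT thus had opposite signs, and they share the WT libraries.

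**Figure D1:**
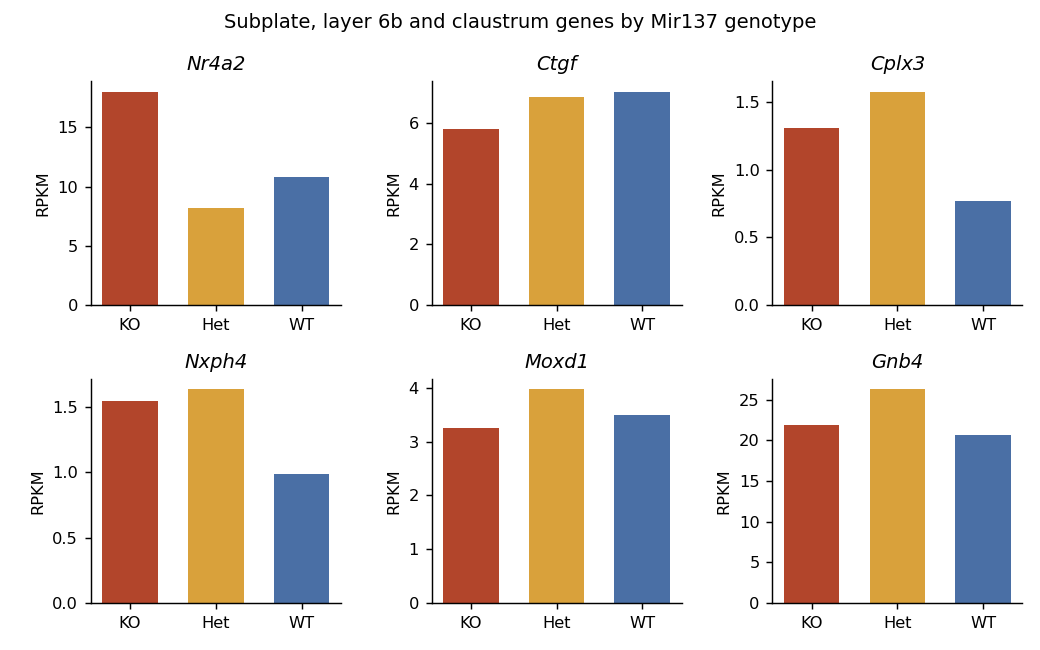
Authors' pooled RPKM of the 6 genes in KO, Het and WT cortex, 1 bar per genotype and no error bars because the deposited values carry none, each panel with its own axis from 0. Nr4a2 is highest in KO at 18.0 RPKM and lowest in Het at 8.17, while Cplx3 and Nxph4 are lowest in WT.

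The other members of the Nr4a family did not share this order. Nr4a1, a receptor gene quickly induced by activity, stood at 19.5 RPKM in KO, 24.1 in Het and 17.7 in WT in the authors' deposited tables, and rose in Het (log2 fold 0.43, adjusted p 0.009997). Nr4a3, the third receptor of the family, was at 17.5 RPKM in KO, 20.7 in Het and 21.01 in WT in the authors' deposited tables, with adjusted p of 0.197 for KO and 0.972 for Het against WT. By value Nr4a1 was thus highest in Het, the genotype in which Nr4a2 was lowest. Nr4a1 did not pass in KO against Het (adjusted p 0.406), nor Nr4a2 in Het against WT (adjusted p 0.0526), in the authors' deposited tables.

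The upstream sequences of the 3 relatives, which by value had different orders over the genotypes, are shown side by side. Each is the 250 bases before the RefSeq start, 5′ to 3′ on the strand of the gene (GRCm38.p6), with the letters TGACG on either strand in capitals. TGACG is the half-site of the cyclic AMP response element, to which CREB binds in genes induced by activity. The windows are chr2:57124004-57124253 on the minus strand for Nr4a2, chr15:101266596-101266845 on the plus strand for Nr4a1 and chr4:48045055-48045304 on the plus strand for Nr4a3.
Nr4a2: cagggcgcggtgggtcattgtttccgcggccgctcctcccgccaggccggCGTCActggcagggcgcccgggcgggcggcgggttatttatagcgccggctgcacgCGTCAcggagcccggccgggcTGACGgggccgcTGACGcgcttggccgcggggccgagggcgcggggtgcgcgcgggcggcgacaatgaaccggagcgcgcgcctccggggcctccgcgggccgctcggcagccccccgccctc
Nr4a1: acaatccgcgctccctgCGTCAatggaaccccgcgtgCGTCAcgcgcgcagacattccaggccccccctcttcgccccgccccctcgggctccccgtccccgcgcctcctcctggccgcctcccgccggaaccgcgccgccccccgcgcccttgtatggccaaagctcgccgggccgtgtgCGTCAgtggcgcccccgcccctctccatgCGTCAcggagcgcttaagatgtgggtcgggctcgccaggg
Nr4a3: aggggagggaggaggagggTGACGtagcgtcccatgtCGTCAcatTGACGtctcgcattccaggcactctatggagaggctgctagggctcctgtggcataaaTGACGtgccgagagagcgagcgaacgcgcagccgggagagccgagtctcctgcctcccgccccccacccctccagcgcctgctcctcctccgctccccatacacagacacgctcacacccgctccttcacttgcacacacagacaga

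Each of the 3 windows held 4 matches to TGACG, so this count does not separate them. Of 32851 such windows in RefSeq, 17.8% held at least 1 match and 0.137% held 4 or more. The full element TGACGTCA, which contains the half-site on both strands, was in none of the 3 windows and in 1.55% of all. Of the 6 members 3 have a window in the RefSeq table, and those of Cplx3 and Moxd1 held no TGACG. Among other genes induced by activity, the window of Dusp1 held 3 matches and the full element. Fos and Npas4 held 2 matches, Fosb and Junb 1, and the windows of Egr2 from 0 to 2. Whether these sequences relate to the different orders was not tested.

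Immediate early genes, which respond quickly to activity, were counted beside Nr4a2. Their list includes its relatives Nr4a1 and Nr4a3. Of 11 measured members, 5 rose and none fell in KO against WT, where 6.72% of all tested genes rose, with a median log2 fold of 0.29 beside 0.01 over all tested genes of at least 1 RPKM, the level asked of list genes. In Het against WT 7 rose, Nr4a1 among them, and none fell, where 3.95% of all tested genes rose. The median there was 0.51 beside 0.01. Npas4, a transcription factor induced by neuronal activity, was at 5.87 RPKM in KO, 6.31 in Het and 3.40 in WT in the authors' deposited tables, and rose in both genotypes (adjusted p 0.000987 and 0.00135). Egr1, a zinc finger factor, reached 34.9 RPKM in Het, against 22.4 in WT cortex, in the authors' deposited table (adjusted p 0.00135). In KO against Het no immediate early gene of the list passed the threshold, where 0.917% of all tested genes rose and 0.953% fell. The median of the list was -0.14 beside 0.00.

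Dopamine neuron genes stayed low in all genotypes. Only 2 of 6 listed members, Slc18a2 and Ddc, reached 1 RPKM, and the summed level of the pair was 7.79 RPKM in KO, 8.96 in Het and 8.06 in WT in the authors' deposited tables. Th, the enzyme that starts dopamine synthesis, stood at 0.784 RPKM in KO, 0.860 in Het and 0.400 in WT in the authors' deposited tables, and did not pass the threshold (adjusted p 0.117 for KO and 0.180 for Het). The dopamine transporter gene Slc6a3 was at most 0.249 RPKM, and the factor Pitx3 at most 0.0122 RPKM, in the authors' deposited tables.

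Cplx3 rose in both mutant genotypes. It encodes a complexin, a small protein that binds the assembled SNARE complex and sets transmitter release, and in the cortex it marks layer 6b. Its level was 1.31 RPKM in KO, 1.57 in Het and 0.765 in WT in the authors' deposited tables. Both mutant values lay above the WT value.

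The rise of Cplx3 was 1.71-fold in KO against WT, a log2 fold of 0.39 (adjusted p 0.04999 in the authors' deposited table, just inside the threshold). In Het against WT it was 2.06-fold, a log2 fold of 0.55 (adjusted p 0.0288 in the authors' deposited table). KO against Het gave a log2 fold of -0.16 and did not pass (adjusted p 0.863 in the authors' deposited table). In WT only 2.15% of tested genes had a lower level than Cplx3, so these folds rest on a gene near the bottom of the range. The call in KO ended with a q threshold of 0.01, with a minimum log2 fold of 0.5 and with p-values adjusted over the 3 tables together. Its loss at the minimum log2 fold depends on the pseudocount of 1. With pseudocounts of 0.1 and 0.01 the log2 fold of Cplx3 in KO against WT was 0.71 and 0.77.

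The abundant complexins gave a different picture. Cplx1 stood at 263 RPKM in KO, 244 in Het and 263 in WT in the authors' deposited tables, and Cplx2 at 364 in KO, 333 in Het and 311 in WT. None of their 6 comparisons passed the threshold (adjusted p from 0.352 to 0.995 in the authors' deposited tables). Cplx4, a complexin of the retina, was listed at 0 in KO and Het and at 0.0478 RPKM in WT in the authors' deposited tables.

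Nxph4 followed the same order as Cplx3 without passing the threshold. It encodes a neurexophilin, a secreted glycoprotein that binds alpha-neurexins at synapses. Its level was 1.55 RPKM in KO, 1.63 in Het and 0.990 in WT in the authors' deposited tables. The log2 fold was 0.36 in KO against WT (adjusted p 0.173) and 0.41 in Het against WT (adjusted p 0.237) in the authors' deposited tables. The unadjusted p was 0.0441 in KO and 0.0435 in Het, and KO and Het differed by a log2 fold of -0.05 (adjusted p 0.993), in the authors' deposited tables.

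Among relatives of Nxph4, Nxph3 rose in KO. This neurexophilin stood at 11.2 RPKM in KO, 5.67 in Het and 5.33 in WT in the authors' deposited tables, 2.11-fold higher in KO against WT (adjusted p 0.000987). It was also higher in KO against Het (log2 fold 0.87, adjusted p 0.00517 in the authors' deposited table). Nxph1 was at 22.5 RPKM in KO, 22.7 in Het and 27.8 in WT, and Nxph2 at 1.05 in KO, 1.21 in Het and 1.08 in WT, in the authors' deposited tables. Nrxn2 and Nrxn3, which encode neurexins, had log2 folds between -0.24 and 0.39, and none passed the threshold (smallest adjusted p 0.0991 in the authors' deposited tables).

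**Figure D2:**
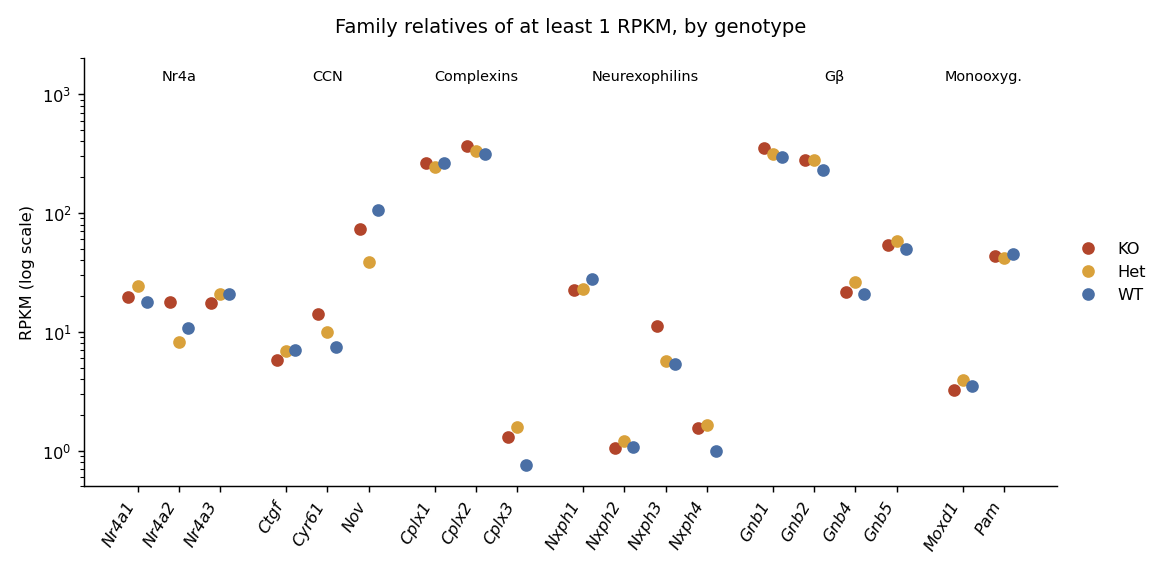
Authors' pooled RPKM on a log scale in KO, Het and WT for the 6 genes and their family relatives of at least 1 RPKM, 1 point per genotype. Nr4a2 and Nxph3 are highest in KO, Nov is lowest in Het, and Cplx3 and Nxph4 lie far below the abundant Cplx1, Cplx2 and Nxph1.

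Ctgf was close to its WT level in Het and lower in KO, without passing the threshold. It encodes connective tissue growth factor, a secreted matrix-associated CCN protein that marks subplate and layer 6b neurons and is also made by fibroblasts and vascular cells. Its level was 5.81 RPKM in KO, 6.84 in Het and 7.03 in WT in the authors' deposited tables. The log2 fold was -0.24 in KO against WT (adjusted p 0.289) and -0.03 in Het against WT (adjusted p 0.957), and KO against Het gave -0.20 (adjusted p 0.770), in the authors' deposited tables. The annotation places an antisense transcript, Gm15270, over 347 nt of a Ctgf exon, and how the authors treated strand is not given in the sources used here.

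The CCN relatives of Ctgf moved in opposite directions. Cyr61, a secreted CCN protein and a target of the Hippo pathway factor YAP, stood at 14.2 RPKM in KO, 10.1 in Het and 7.42 in WT in the authors' deposited tables, and rose in KO (log2 fold 0.86, adjusted p 0.000987). Nov, another CCN protein, was at 73.1 RPKM in KO, 38.5 in Het and 107 in WT in the authors' deposited tables. It fell by 0.54 on the log2 scale in KO against WT (adjusted p 0.000987) and by 1.45 in Het against WT (adjusted p 0.00135), and it was higher in KO against Het (log2 fold 0.91, adjusted p 0.00517), in the authors' deposited tables. Of 6 measured YAP target genes, Cyr61 rose and Lats2, a kinase that inhibits YAP, fell in KO against WT. Over all tested genes 6.72% rose and 7.68% fell there. The median log2 fold of the 6 was -0.04 beside 0.01 over all tested genes. In Het against WT none of the 6 passed the threshold, where 3.95% of all tested genes rose and 5.06% fell.

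Some meningeal fibroblast genes, from the tissue that covers the cortex, fell in the mutants. Over 9 of 9 measured members their summed level was 77.2 RPKM in KO, 58.2 in Het and 101 in WT in the authors' deposited tables. In KO 2 fell against WT and none rose, where 7.68% of all tested genes fell, with a median log2 fold of -0.31. In Het 5 fell and none rose, where 5.06% fell, with a median of -0.41. The order of the sums rests on Dcn, a matrix proteoglycan gene, at 28.5 RPKM in KO, 5.94 in Het and 31.9 in WT in the authors' deposited tables. Without Dcn, a sum taken after the values were seen, the other 8 genes reached 48.7 RPKM in KO, 52.2 in Het and 68.9 in WT in the authors' deposited tables. In KO against Het only Dcn of the 9 genes passed the threshold, where 0.917% of all tested genes rose and 0.953% fell. The order of KO and Het in the other 8, like that in Ctgf, thus rests on differences that did not pass. Of the 9 genes 5 (Ogn, Col1a1, Col1a2, Col3a1 and Igf2) had KO lowest and WT highest, the order of Ctgf. The other 4 had Het lowest and WT highest. The share of all genes with each order was not counted, so nothing is read from these numbers. Of 9 measured vascular genes, 2 rose and none fell in KO against WT, where 6.72% of all tested genes rose, with a median log2 fold of 0.19. In Het 2 rose and 1 fell, where 3.95% rose and 5.06% fell, with a median of 0.07. The part of fibroblast and vascular RNA in the level of Ctgf was not tested.

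Moxd1 differed little between genotypes. It encodes a protein related to dopamine beta-hydroxylase, a copper-dependent monooxygenase, and marks subplate neurons. Its level was 3.26 RPKM in KO, 3.97 in Het and 3.49 in WT in the authors' deposited tables. The log2 folds were -0.08 for KO against WT, 0.15 for Het against WT and -0.22 for KO against Het, with adjusted p of 0.793, 0.682 and 0.700 in the authors' deposited tables. Pam, the related enzyme that amidates neuropeptides, stood at 43.6 RPKM in KO, 42.1 in Het and 44.8 in WT in the authors' deposited tables, with adjusted p of at least 0.775.

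Gnb4 was the most abundant of the 6 genes in each genotype. It encodes a beta subunit of heterotrimeric G proteins, and in the forebrain it marks the claustrum. Its level was 21.8 RPKM in KO, 26.3 in Het and 20.7 in WT in the authors' deposited tables, with Het the highest. In WT it exceeded 69.4% of tested genes.

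The log2 fold of Gnb4 was 0.33 in Het against WT, with an adjusted p of 0.0528 in the authors' deposited table, just outside the threshold. In KO against WT it was 0.07 (adjusted p 0.771), and in KO against Het -0.26 (adjusted p 0.502), in the authors' deposited tables. The other beta subunits Gnb1, Gnb2 and Gnb5 were more abundant, from 49.7 RPKM for Gnb5 in WT to 355 for Gnb1 in KO in the authors' deposited tables, and none passed the threshold in any comparison. Their smallest adjusted p was 0.103, for Gnb2 in KO against WT, at 282 RPKM in KO and 231 in WT cortex in the authors' deposited table.

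**Figure D3:**
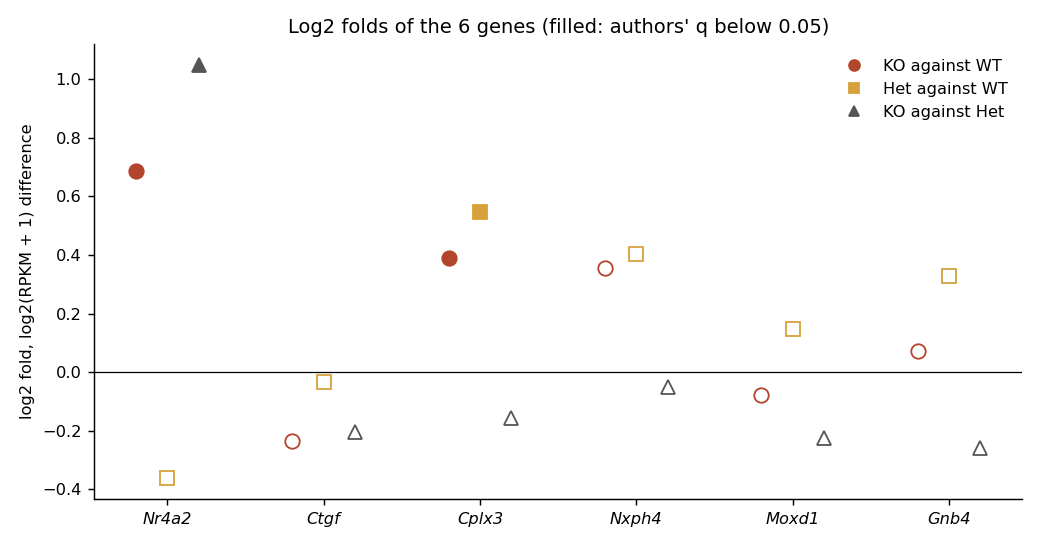
Log2 folds (differences of log2(RPKM + 1)) of the 6 genes in KO against WT, Het against WT and KO against Het, with filled marks where the authors' q-value is below 0.05. Nr4a2 lies at 0.69 in KO and -0.36 in Het against WT, and Cplx3 is filled in both comparisons with WT.

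Some other genes used to mark subplate and layer 6b fell. Of 12 measured members none rose and 3 fell in KO against WT, where 6.72% of all tested genes rose and 7.68% fell. The median log2 fold of the 12 was -0.20 beside 0.01 over all tested genes. In Het against WT none rose and 2 fell, where 3.95% rose and 5.06% fell, with a median of -0.12 beside 0.01. Pls3, an actin-bundling plastin, stood at 59.0 RPKM in KO, 63.3 in Het and 91.2 in WT in the authors' deposited tables, lower in both (adjusted p 0.000987 and 0.00135). The netrin receptor gene Unc5c was at 5.18 RPKM in KO, 5.73 in Het and 7.43 in WT in the authors' deposited tables, lower in both (adjusted p 0.00179 and 0.0282). Gabra5, a GABA-A receptor subunit, fell in KO to 107 RPKM, against 136 in WT (adjusted p 0.0448 in the authors' deposited table). In KO against Het 1 of 12 fell, where 0.953% of all tested genes fell. It was the potassium channel subunit gene Kcnab1, at 28.9 RPKM in KO and 40.1 in Het (adjusted p 0.0294 in the authors' deposited table).

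Among 6 measured of 7 other claustrum genes, 1 rose in KO against WT, where 6.72% of all tested genes rose, with a median log2 fold of 0.19. In Het 2 rose, where 3.95% rose, with a median of 0.08, and none fell in either. Oprk1, the kappa opioid receptor gene, rose in both, at 1.03 RPKM in KO, 1.08 in Het and 0.451 in WT in the authors' deposited tables (adjusted p 0.000987 and 0.00602). Its WT level was below that of Cplx3 (0.765 RPKM), so this rise too rests on a gene near the bottom of the range. The synaptic vesicle protein gene Synpr rose in Het, at 90.8 RPKM in Het and 64.7 in WT (adjusted p 0.00135 in the authors' deposited table). It was lower in KO against Het, at 66.6 RPKM in KO and 91.4 in Het (adjusted p 0.0184 in the authors' deposited table). By value Synpr and Oprk1 were highest in Het, as was Gnb4, while Gng2, Ntng2 and B3gat2 were lowest in Het and Lxn was highest in KO. The striatum also expresses Oprk1, and the summed striatal levels given above moved the same way; their part was not tested.

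Layer 6 corticothalamic genes, from the layer just above 6b, included 4 that rose in both KO and Het. Of 10 measured members 5 rose and none fell in KO against WT, where 6.72% of all tested genes rose, with a median log2 fold of 0.31 beside 0.01. In Het 5 rose and 2 fell against WT, where 3.95% rose and 5.06% fell, with a median of 0.22 beside 0.01. Syt6, a synaptotagmin, stood at 8.87 RPKM in KO, 8.98 in Het and 2.70 in WT in the authors' deposited tables. Ntsr1, the neurotensin receptor gene used to mark corticothalamic cells, was at 5.47 RPKM in KO, 4.05 in Het and 2.72 in WT in the authors' deposited tables, higher in both (adjusted p 0.000987 and 0.0258). Foxp2, a transcription factor that the striatum expresses too, was at 3.94 RPKM in KO, 3.44 in Het and 0.852 in WT in the authors' deposited tables.

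The layer 6 list also held genes that, like Nr4a2, were higher in KO against Het. Of its 10 members 3 rose and none fell in that comparison, where 0.917% of all tested genes rose and 0.953% fell. Sla, an adaptor protein gene, was at 15.3 RPKM in KO, 9.17 in Het and 11.1 in WT in the authors' deposited tables, with adjusted p of 0.00517 for KO against Het. Crym, which encodes a thyroid hormone binding protein, stood at 469 RPKM in KO, 296 in Het and 423 in WT in the authors' deposited tables, and Fezf2, a transcription factor of deep-layer neurons, at 15.7 in KO, 10.9 in Het and 14.6 in WT. In layers 2 to 4 none of 9 measured genes passed the threshold in KO against Het. Whether the layers differ from one another was not tested.

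**Figure D4:**
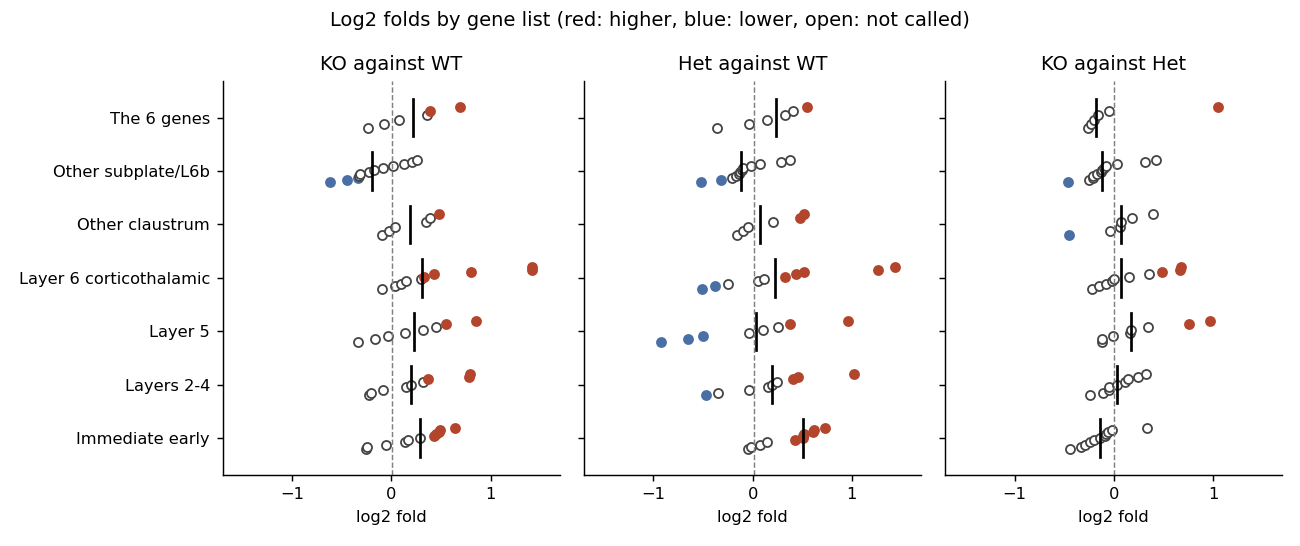
Log2 folds of the measured genes of 7 lists in KO against WT, Het against WT and KO against Het, where each point is a gene (red higher, blue lower, open not called), black bars are list medians and the dashed line is the median of all tested genes. In KO against Het the 6 genes lie below 0 except Nr4a2 at 1.05.

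The genes whose pattern over the 3 genotypes lay nearest to each member were found by the distance in the plane of the Het and KO log2 folds against WT, among 13390 genes of at least 1 RPKM in WT. For Nr4a2 they were Snora64, a small nucleolar RNA, at a distance of 0.0877 and Nnmt, a nicotinamide methyltransferase gene, at 0.197. Nnmt stood at 4.89 RPKM in KO, 2.42 in Het and 2.88 in WT in the authors' deposited tables. The distance uses values only. Snora64 passed in neither comparison with WT (adjusted p 0.859 in KO and 0.954 in Het in the authors' deposited tables). Nnmt passed in KO (adjusted p 0.0484) and not in Het (adjusted p 0.806), in the authors' deposited tables. For Cplx3 the nearest genes were Ptpro, a receptor tyrosine phosphatase gene, at 0.00621 and E2f1, a cell cycle transcription factor gene, at 0.00656. Nxph4 had Rpa2, which binds single-stranded DNA, at 0.00471. For Ctgf they were Lrch3 at 0.00184 and Bnip3 at 0.00612, for Moxd1 Itm2a at 0.00260 and Mettl10 at 0.00557, and for Gnb4 Utp23 at 0.00862 and Axin2 at 0.0155. With a pseudocount of 0.1 only 1 of the 12 neighbours found for the 6 genes was found again. Of the 6 genes Nr4a2 had the most distant nearest neighbours.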

How the data were processed

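RNA from mouse cortex was sequenced in 4 libraries each of KO, Het and WT. Per the submitters' processing notes, CASAVA 1.4, TopHat2 2.0.13, Cuffdiff 2.2.1 and the build mm9 were used; which step each served and which annotation was used were not given in the sources used here. The authors deposited 3 pairwise tables that, per the file headers, give each gene 1 RPKM value per genotype, a p-value and a q-value. Recomputing Benjamini-Hochberg over the genes whose p is below 1 gives the deposited q-values, and genes at a p of 1 were treated as untested. The deposited log2 column holds error cells and was not used. A genotype's value for a member differed between tables by at most 0.681%; the KO and WT levels shown come from KO against WT, Het from Het against WT, except within KO against Het.

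No test was run here, since pooled values carry no spread. Log2 folds use a pseudocount of 1 RPKM, and list genes counted as measured at 1 RPKM in either genotype. The text names the 6 genes, their family relatives of at least 1 RPKM, up to 4 called genes per list by smallest q, and 2 pattern neighbours per member, of which some genes are not reported here; Th, Slc6a3, Pitx3, Slc18a2, Ddc, Cplx4, Gm15270 and any other list gene that did not pass the threshold were added after their values were seen. The members and lists were chosen with earlier results of these data known. The promoter motifs, the genes named for them, the 250-base window and the search for overlapping exons were also chosen after values were seen. Matched by name to GENCODE M21, 90.2% of 13811 expressed genes had a 3' UTR. Steps were tested on simulated data. Work used Python 3.11.15, numpy 2.4.6, pandas 2.3.3 and matplotlib 3.10.9.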

Additional observations from a re-analysis of the deposited data

How the results depend on the processing

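The direction of all 18 log2 folds of the 6 genes held in 72 of 72 values under pseudocounts of 0.1 and 0.01, recentring on the median gene, and values from the other tables. In KO against WT the number of the 6 genes called was 1 instead of 2 under each of 4 settings: a q threshold of 0.01, a minimum log2 fold of 0.5, adjustment over the 3 tables together, and a minimum of 5 RPKM. Nr4a2 was the gene kept in each, and Cplx3 the gene lost. The loss of Cplx3 at a minimum log2 fold of 0.5 depends on the pseudocount of 1, as given above. In Het against WT the count was 0 instead of 1 with a q threshold of 0.01. It was also 0 with a minimum of 5 RPKM, which Cplx3 does not reach. At an unadjusted p below 0.05, 4 of the 6 genes pass in the authors' deposited table. The share of all tested genes at that level was not counted, so nothing is read from this number. In KO against Het the count was 1, Nr4a2, under all 4 settings. Counts of called genes over the other lists stayed within 1.5 times, and no seed match appeared with the shortest 3' UTR. No paired analysis was possible because the tables hold 1 pooled value per genotype, and for the same reason no library could be left out. Leaving Dcn out of the fibroblast sums, added after seeing the data, turned the order of KO and Het. Library depth is unknown.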

Other observations

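Layer 5 genes, whose neurons project below the cortex, included 2 that rose in KO against Het and fell in Het against WT. Of 8 measured members, 2 rose and none fell in KO against Het, where 0.917% of tested genes rose and 0.953% fell. The median log2 fold was 0.17 beside 0.00 over all tested genes. In Het against WT 2 rose and 3 fell, where 3.95% rose and 5.06% fell, with a median of 0.03. In KO against WT 2 rose and none fell, where 6.72% rose and 7.68% fell, with a median of 0.23. Ldb2, a LIM domain cofactor gene, stood at 22.5 RPKM in KO, 11.0 in Het and 17.8 in WT in the authors' deposited tables, and was 2.05-fold higher in KO against Het (adjusted p 0.00517). Etv1, a transcription factor of layer 5 neurons, was at 17.9 RPKM in KO, 10.2 in Het and 20.2 in WT in the authors' deposited tables, with the same adjusted p in KO against Het. Ldb2 shared the order of Nr4a2, with KO above WT and Het lowest, though its difference between KO and WT did not pass the threshold (adjusted p 0.0705 in the authors' deposited table). Pcp4, a calmodulin-binding protein gene that striatal neurons also express, rose in both, at 477 RPKM in KO, 514 in Het and 264 in WT in the authors' deposited tables.

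In layers 2 to 4, 3 of 9 measured genes rose and none fell in KO against WT, where 6.72% of all tested genes rose, with a median log2 fold of 0.20. In Het 3 rose and 1 fell, where 3.95% rose and 5.06% fell, with a median of 0.20. Lamp5, a membrane protein gene of upper-layer neurons and of a class of interneurons, stood at 17.2 RPKM in KO, 20.4 in Het and 9.51 in WT in the authors' deposited tables. Unc5d, a netrin receptor gene of the same family as the layer 6b gene Unc5c, fell in Het to 2.83 RPKM, against 4.30 in WT cortex (adjusted p 0.00135 in the authors' deposited table).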
